A study of Rattus norvegicus with 6 samples.

Results

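Multi-exon circular RNAs (circRNAs) whose circularised exons lie between long introns were described in rat white matter. A circRNA was counted here when it was listed as exonic, held 2 to 9 exons, had at least 1 junction read over the 6 libraries and had 20000 bp or more of intron on each side. This rule, which uses annotation and not expression differences, selected 680 of 8635 detected circRNAs (7.87%), from 417 host genes. They are called long-intron circRNAs below. The study set 3 cerebral palsy model rats against 3 normal control rats, with 1 library of white matter RNA per rat. RNA was digested with RNase R, which degrades linear RNA and leaves most circles. The sources used here give neither the way the model was induced nor the strain, age or sex of the animals.

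A circRNA forms when the splice donor at the end of an exon joins an acceptor upstream of it instead of the next exon, which leaves a closed loop with a back-splice junction. Long introns around the circularised exons are a known feature of circRNAs in mammals: inverted repeats in the 2 introns, or proteins such as Quaking that bind in both, can bring the distant splice sites together. Brain is rich in circRNAs, and many neuronal genes that make them are long genes with very long introns.

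Libraries held 5821, 4750 and 5697 junction reads in model rats 1 to 3, against 6793, 6285 and 5926 in control rats 1 to 3. At this depth a count of 0 in a library allows up to 3 reads, or 0.0442% to 0.0632% of its junction reads. The long-intron circRNAs held 4084 of the 35272 reads (11.6%). Between 189 and 240 of them had a read in a given library. Among cell type markers, 1 of 5 oligodendrocyte precursor and 2 of 7 neuron genes hosted a long-intron circRNA, and none of the 8 oligodendrocyte, 6 astrocyte, 5 microglia, 4 endothelial and 3 ependyma genes did. A circRNA of any kind came from 5 of the 8 oligodendrocyte markers, with Mag, Mog and Mal at 0, and from none of the 5 microglia markers. It came from 2 precursor, 3 neuron, 2 astrocyte, 1 endothelial and 1 ependyma markers. Over all 3696 circRNA-producing genes, 417 hosted a long-intron circRNA, so these few markers show no contrast between cell types. Circle counts are not mRNA levels, so they bear on cell content only loosely.

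The long-intron circRNAs were set against 5557 other detected circRNAs of 2 to 9 exons whose introns on both sides were given. Their shorter flanking intron had a median of 32360.5 bp, against 3621 bp in the others, a difference that the rule itself fixes. Upstream introns had a median of 49514.5 bp and downstream introns one of 40757.5 bp, and the upstream intron was the longer in 397 circRNAs (58.4%). In 595 of them (87.5%) the 2 introns together were longer than the circularised region, against 62.5% of the others. The rule largely builds in this contrast too, since it asks for 20000 bp or more on each side. Across the 680 circRNAs, upstream and downstream lengths had a Spearman correlation of 0.22, over circles that in part share a host gene or an intron. The rule cuts both lengths off at 20000 bp, and over all 6237 multi-exon circRNAs the correlation was 0.51. The long-intron circRNAs lay on both strands, with 340 on the plus strand, and 25 (3.68%) on the X chromosome, against 2.32% of the others.

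Long-intron circRNAs had fewer exons but covered more genome. The median was 3 exons, against 4 in the others, and circles of 2 exons made up 29.9% of them, against 19.4% of the others. The stretch of genome between acceptor and donor, introns included, had a median of 29768 bp (quartiles 12015 and 68209 bp), against 10401 bp. The span was longer at equal exon number. Circles of 2 exons spanned a median of 9469 bp among the long-intron circRNAs and 2502 bp among the others, and circles of 3 exons spanned 25860 and 6548.5 bp. The shortest spanned 231 bp and the longest 873445 bp. Circles of 3 exons held the most reads, 1303.

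**Figure D1:**
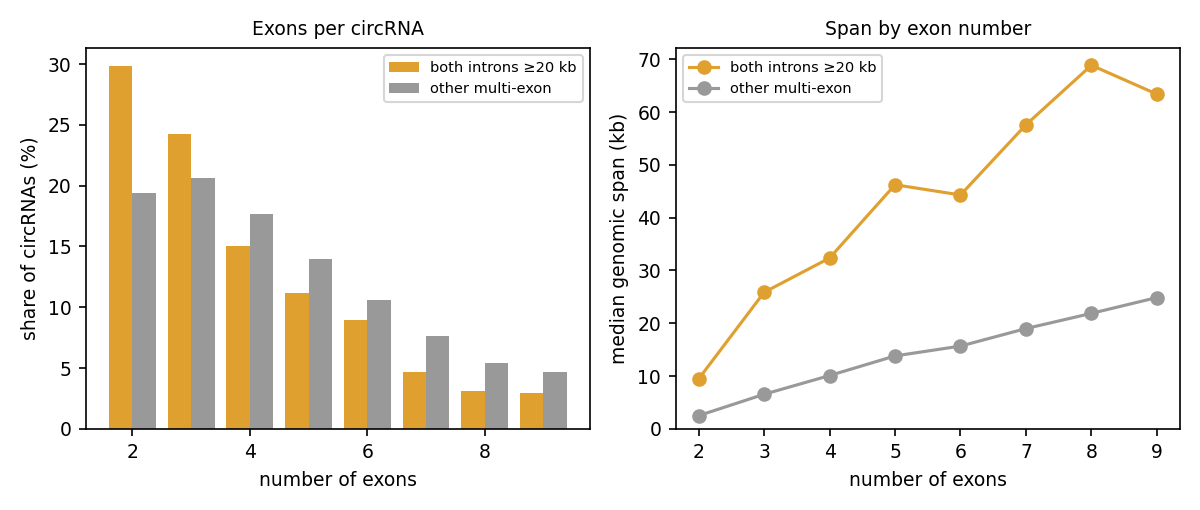
Share of circRNAs in percent (left) and median genomic span in kb (right) by number of exons, for long-intron circRNAs and for other multi-exon circRNAs. Circles of 2 exons are more frequent among the long-intron circRNAs (29.9% against 19.4%), and at every exon number their median span is the longer.

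The same contrast was tested within libraries, which holds depth constant. Weighted by reads, the mean exon number was 3.95 ± 0.096 for long-intron circRNAs and 4.34 ± 0.072 for the others (SD, n = 6 libraries). It was lower in 6 of 6 libraries, with a mean difference of -0.38 exons (exact two-sided sign-flip permutation test, p = 0.03125, Benjamini-Hochberg adjusted over 3 measures p = 0.03125). The read-weighted mean of log2 genomic span was 14.10 ± 0.057 against 13.36 ± 0.045, higher in 6 of 6 libraries by 0.74 (the same exact test, p = 0.03125, adjusted p = 0.03125). That p is the smallest that 6 libraries allow. Both sets were limited to 2 to 9 exons, and all 6 libraries share the transcript annotation. These libraries thus repeat the abundance of the circles and not their structure. The test adds no separate support to the contrast in exon number and span per circle.

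Reads per circle also differed. In a library, a detected long-intron circRNA had a mean of 3.07 ± 0.19 reads, against 2.59 ± 0.06 for the others (SD, n = 6), and the difference of 0.473 was positive in 6 of 6 libraries (exact two-sided sign-flip permutation test, p = 0.03125, adjusted p = 0.03125). All libraries read the same circles, so this p covers how steady the difference was between libraries, and not other circles. The size of the difference depended on the most abundant circles. Without the 2 most-read circRNAs of each set, which are those of Unc79 and Arid1a among the long-intron circRNAs, it was 0.133, and without the same share of most-read circRNAs (2 of 680 and 16 of 5557) it was 0.362. Both were positive in 6 of 6 libraries (the same exact test, adjusted p = 0.03125 for each). With the Unc79 and Arid1a circles left out and all of the others kept, it was 0.0542 (adjusted p = 0.219 by the same exact test). These alternatives were chosen after the values were seen. With the limit at 10000 bp, detected circles had a mean of 3.48 reads, against 2.28 for the others. That difference of 1.20 was positive in 6 of 6 libraries (the same exact test, adjusted p = 0.03125). A higher count was thus not particular to circles above the 20000 bp limit. Over all libraries together, 87 of 680 (12.8%) reached 10 reads, against 392 of 5557 (7.05%). A single read supported 280 of them (41.2%), against 49.3% of the others, and 34 were found in all 6 libraries.

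Reads did not climb further with intron length. Sorted by the shorter flanking intron, multi-exon circRNAs had a mean of 3.06 reads below 1 kb, 3.26 from 1 to 5 kb, 6.01 from 5 to 20 kb, 6.48 from 20 to 50 kb, 4.68 from 50 to 100 kb and 3.64 at 100 kb or more. The last class held only 36 circRNAs. The share with at least 10 reads peaked in the class from 20 to 50 kb, at 13.8%, and was 5.56% in the longest. Genomic span kept growing through the same classes, with medians of 5673, 8622, 16309, 26618, 42214 and 66563 bp. Within the long-intron circRNAs, the Spearman correlation of total reads with the shorter intron was -0.03 (n = 680), a description over circles read in the same 6 libraries.

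**Figure D2:**
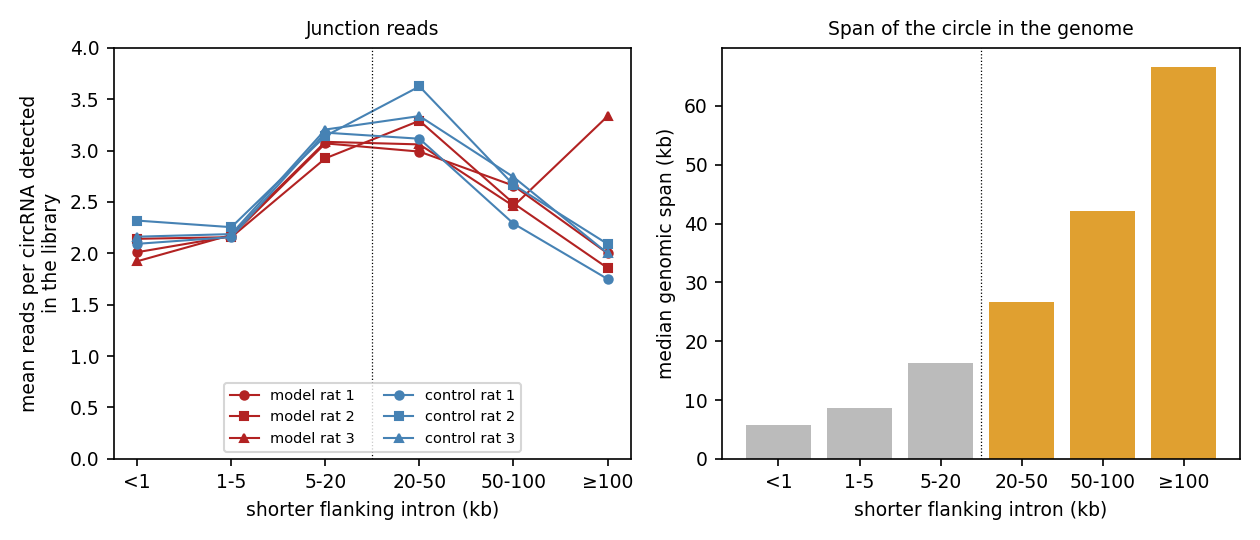
Multi-exon circRNAs in 6 classes of the shorter flanking intron, in kb. Left, mean reads per circRNA detected in a library, 1 point per library; right, median genomic span in kb. Reads per circRNA lie between 2.99 and 3.62 in the class from 20 to 50 kb and between 1.75 and 3.33 in the longest class, while the span grows from class to class. The dotted line marks the 20 kb limit.

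The limit at 20000 bp had no gap in it. Just inside, among circles with at least 10 reads, were Slc41a2 circRNA999 (magnesium transporter, shorter intron 20341 bp), Agap1 circRNA2248 (GTPase-activating protein, 20394 bp) and Dgki circRNA1506 (diacylglycerol kinase, 20408 bp). Just outside were Aopep circRNA406 (19521 bp), Scaper circRNA3766 (19539 bp) and Dennd1b circRNA29 (19566 bp).

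The circles came from many hosts, mostly 1 per gene. Of the 417 host genes, 270 (64.7%) gave a single long-intron circRNA and 64 gave 3 or more. Lrp1b, an endocytic receptor of the LDL receptor family, gave the most distinct circles, 9 with 13 reads in all. Csmd3 gave 8 circles with 12 reads. Grik2, which encodes a kainate receptor subunit, gave 7 circles with 52 reads. Cdk14, a cyclin-dependent kinase, gave 7 with 21 reads. In 132 host genes all exonic circle reads came from long-intron circRNAs, and the median host drew 65.4% of its exonic circle reads from them.

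Circles often shared a splice site. Of the 680, 160 (23.5%) shared their acceptor with another long-intron circRNA and 155 (22.8%) their donor. Either kind of sharing applied to 42.2%, against 44.0% among the other multi-exon circRNAs. Rere, a transcriptional corepressor of the atrophin family, gave the family with most reads: 4 circles of 3, 6, 7 and 8 exons began at the same acceptor on chromosome 5 at 160949839. The circle of 7 exons, circRNA1432, had 60 of the 127 reads (47.2%), the 6-exon circRNA1434 had 32 and the 3-exon circRNA1431 had 30. In Grik2, circRNA923 held 97.7% of the reads of the 2 circles that shared its donor.

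Reads were concentrated in few circles. The 10 most abundant held 26.3% of the reads of all long-intron circRNAs, and the first 2 held 14.4%. Levels are given as reads per 1000 TMM-scaled junction reads, and each circle is counted at its single junction. These 10 were named for their total reads over both groups; Ambra1 circRNA1651 and Grik2 circRNA923 tied for the last place with 43 reads each, and both are given.

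Unc79, which encodes a large subunit of the NALCN sodium leak channel complex, gave the most abundant, circRNA1253 (mRatBN7.2, chromosome 6, 122125681 to 122155184, plus strand, 6 exons). Its introns were 42385 bp upstream and 21817 bp downstream. It had 56, 37 and 68 reads in model rats 1 to 3, against 51, 66 and 53 in control rats. The groups overlapped widely. Its level averaged 9.78 ± 2.08 in model rats and 8.99 ± 1.51 in control rats (SD, n = 3 each), with a log2 fold of 0.13 ± 0.32 (SE; edgeR quasi-likelihood test, Benjamini-Hochberg adjusted p = 0.964).

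Arid1a, a DNA-binding subunit of the SWI/SNF (BAF) chromatin remodelling complex, gave circRNA1417 (chromosome 5, 145948264 to 145951212, minus strand, 3 exons over 2949 bp). Its introns were 28841 bp upstream and 22789 bp downstream, so the circle was a short island between far longer introns. It had 37, 51 and 29 reads in model rats, against 31, 61 and 47 in control rats. Here too the groups overlapped, at levels of 7.37 ± 2.81 in model rats and 7.40 ± 2.62 in control rats (SD, n = 3 each). The log2 fold was -0.01 ± 0.36 (SE; edgeR quasi-likelihood test, adjusted p = 0.989).

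Several further hosts act in signalling and membrane traffic. Mapkap1 encodes SIN1, a subunit of mTOR complex 2, and its circRNA1600 (chromosome 3, 17741317 to 17753437, plus strand) had 16, 4 and 16 reads in model rats, against 18, 14 and 19 in control rats. Tbc1d5, a Rab GTPase-activating protein that acts with retromer, gave circRNA2151 (chromosome 9, 3737336 to 3749052, minus strand) with 8, 8 and 16 reads in model rats, against 10, 18 and 15 in control rats. Pde3b, a cyclic nucleotide phosphodiesterase, gave circRNA2037 (chromosome 1, 168698218 to 168707406, plus strand) with 13, 9 and 0 reads in model rats, against 11, 7 and 14 in control rats. A model rat was the lowest in each of the 3, and the groups overlapped. Their log2 folds were -0.30 ± 0.49, -0.22 ± 0.52 and -0.30 ± 0.76 (SE; edgeR, adjusted p = 0.964 for each).

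Mboat2 encodes a membrane-bound lysophospholipid acyltransferase, and its 2-exon circRNA1183 (chromosome 6, 41516677 to 41521352, plus strand) had 16, 9 and 4 reads in model rats, against 15, 20 and 7 in control rats. Rere circRNA1432 (chromosome 5, 160949839 to 161013995, plus strand) had 8, 11 and 11 reads in model rats, against 8, 8 and 14 in control rats. Neither separated the groups: log2 folds were -0.29 ± 0.57 for the Mboat2 circle and 0.22 ± 0.61 for the Rere circle (SE; edgeR, adjusted p = 0.964 for both).

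The remaining 3 of the 10 did not pass the default low-count filter, which asks for a minimum count in several libraries. Ssbp2, an LDB1-binding transcription cofactor, gave circRNA1749 with 8, 5 and 11 reads in model rats, against 5, 18 and 7 in control rats. Ptprd, a receptor tyrosine phosphatase of synaptic adhesion, gave circRNA1347 with 0, 13 and 4 reads in model rats, against 7, 6 and 14 in control rats. Ambra1, a regulator of autophagy, gave circRNA1651 with 9, 7 and 12 reads in model rats, against 7, 8 and 0 in control rats. Grik2 circRNA923 had 6, 5 and 13 reads in model rats, against 9, 2 and 8 in control rats. Of these 4, only the Ambra1 circle had levels that did not overlap, 1.44 to 2.07 in model rats and 0 to 1.28 in control rats, and control rat 3 had none of its reads.

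**Figure D3:**
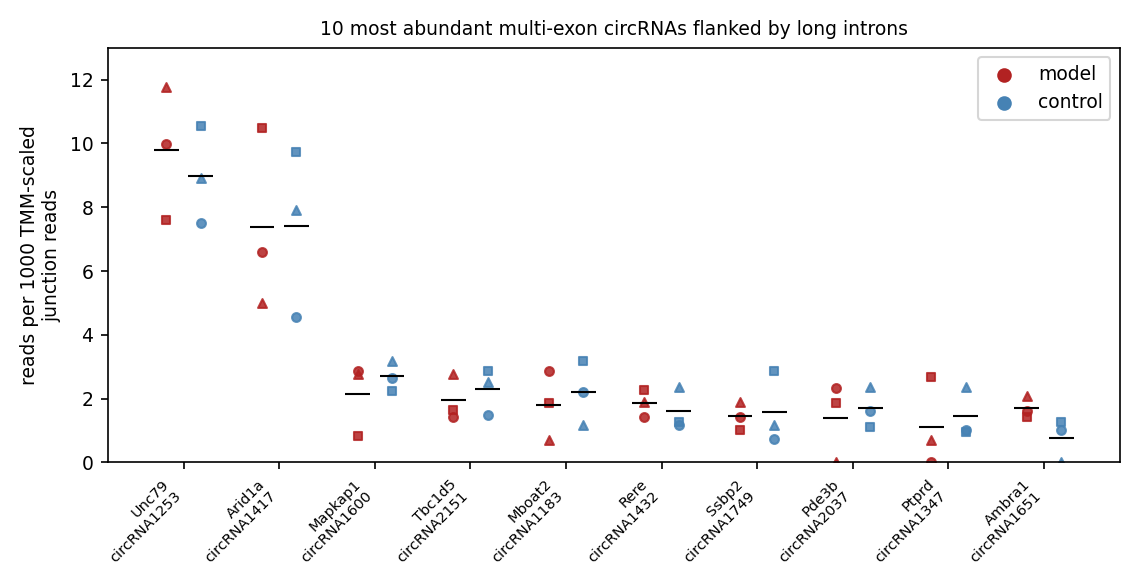
Level of the 10 most abundant long-intron circRNAs (Grik2 circRNA923, tied with Ambra1, is not drawn), in reads per 1000 TMM-scaled junction reads, in each rat (circles, squares and triangles for rats 1, 2 and 3; bars, group means). Model rats stand left of control rats in each pair. The Unc79 and Arid1a circles stand above the rest, and only for Ambra1 do the groups not overlap.

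Very long introns on both sides did not preclude recurrent circles. Gabrg3, a GABA-A receptor subunit gene, gave circRNA3578 (chromosome 1, 107866624 to 107868414, minus strand), 2 exons over 1791 bp between introns of 313344 and 183416 bp. It had 3, 0 and 9 reads in model rats, against 0, 5 and 2 in control rats. Dscam, a homophilic adhesion molecule of neurons, gave circRNA194 between introns of 114881 and 202078 bp, with 9, 4 and 3 reads in model rats, against 5, 1 and 6 in control rats. Adgrb3, a synaptic adhesion G protein-coupled receptor, gave circRNA2179 with 4, 1 and 9 reads in model rats, against 9, 6 and 2 in control rats, and its shorter intron had 94959 bp. The groups overlapped for all 3. The Ptprd and Ssbp2 circles above complete the 5 with the longest shorter introns among those with 10 reads or more, at 97201 and 89258 bp.

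No long-intron circRNA passed the test between model and control rats. The default filter left 60 circRNAs of all kinds, of which 2 (3.33%) were called at an adjusted p below 0.05. Of the 7 long-intron circRNAs among them, 0 were called by edgeR, and 0 had an unadjusted p below 0.05; DESeq2 and limma voom also called 0. Their log2 folds had a median of -0.22, against 0.00 over all 60. The SEs of 0.32 to 0.76 leave room for differences that were not detectable at this depth. In whole tissue, fewer cells of a type and less RNA per cell cannot be told apart.

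Summing the long-intron circles of each host gave 9 testable genes among 96 features, of which 1 (1.04%) was called and 0 of the 9; 1 of the 9, Stk39, had an unadjusted p below 0.05 in edgeR. For 8 of the 9, log2 folds lay between -0.32 (Pde3b) and 0.12 (Unc79). Mlip, which encodes a lamin-interacting protein, had 14, 1 and 12 reads over its 2 circles in model rats, against 11, 15 and 4 in control rats. All Rere circles together had 24, 16 and 21 reads in model rats, against 21, 24 and 22 in control rats. The groups overlapped for both.

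The ninth was Stk39, the gene of SPAK, a kinase that regulates cation-chloride cotransporters. Its 3 long-intron circles had 3, 1 and 0 reads in model rats, against 12, 17 and 15 in control rats. The groups did not overlap, and the levels were 0.247 ± 0.27 in model rats and 2.34 ± 0.499 in control rats (SD, n = 3 each). The sum met the default filter, with its minimum count of 10, only through the control rats, the group where it was high. Its fold and adjusted p thus describe a sum that this group selected for testing. The log2 fold was -3.15 ± 0.88 (SE; edgeR quasi-likelihood test, adjusted p = 0.0745). The sum was called with DESeq2 (adjusted p = 0.0385) and, in edgeR, with the authors' library divisors (0.0201) and without model rat 1 (0.0317). It was not called in any other setting that tested it. With all rats kept, those adjusted p ran from 0.0600 (edgeR, 10000 bp limit) to 0.162 (limma voom) and 0.474 (edgeR, replicate block). In edgeR it was 0.0917 without model rat 2 and 0.221 without model rat 3. Without control rats 1, 2 and 3 it was 0.225, 0.784 and 0.589. Of the 48 reads of the Stk39 circles, 41 came from circRNA1632 (chromosome 3, 53101143 to 53120229, minus strand, 4 exons). This circle had 3, 0 and 0 reads in model rats, against 10, 13 and 15 in control rats.

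Below the filter, 6 of the 680 were marked as changed in the authors' deposited table, which marks 35 of the 8635 detected circRNAs (0.405%). That table was made from the same libraries, so its marks are not separate evidence, and its q-value was 0.309 for Stk39 circRNA1632 and 1 for the other 5. These 5 are named for the mark, after their values were seen.

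In 2 of them model rats had fewer reads. Thada circRNA1137 had 0, 0 and 1 reads in model rats, against 5, 5 and 4 in control rats. Camta1, a calmodulin-binding transcription activator expressed in brain, gave circRNA1438 with 4, 4 and 0 reads in model rats, against 13, 7 and 12 in control rats. The groups did not overlap for either. The ratio of scaled reads, model over control, was 0.0835 for Thada (95% exact interval 0.00197 to 0.549) and 0.292 for Camta1 (0.116 to 0.647), against 0.0922 for Stk39 circRNA1632 (0.0182 to 0.291).

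In the other 3 model rats had more. Cacna2d3, an auxiliary subunit of voltage-gated calcium channels, gave circRNA507 with 0, 14 and 11 reads in model rats, against 1, 2 and 0 in control rats, so that model rat 1 lay among the control rats. Syndig1, a transmembrane protein of excitatory synapses, gave circRNA1712 with 5, 4 and 6 reads in model rats, against 1, 1 and 0 in control rats. Rnf150, a RING finger protein gene, gave circRNA752 with 4, 4 and 3 reads in model rats, against 1, 0 and 0 in control rats. Groups did not overlap for the Syndig1 and Rnf150 circles. Ratios, model over control, were 9.74 for Cacna2d3 (95% exact interval 2.97 to 50.4), 8.76 for Syndig1 (2.04 to 79.0) and 12.9 for Rnf150 (1.87 to 553). These intervals cover counting error only, and not the spread between rats.

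With a filter of 10 reads in all, edgeR tested 561 circRNAs and called 0, with 32 at an unadjusted p below 0.05. The 87 long-intron circRNAs included 6 of those 32, the same 6 that the authors marked, at adjusted p from 0.160 (Stk39) to 0.862. Of the 87, 44 were higher and 43 lower in model rats, with a median log2 fold of 0.01 against -0.03 over all 561. Groups did not overlap in 15 of the 87, 8 higher and 7 lower in model rats; over all 561 circRNAs the share was 11.9%. Examples chosen after their values were seen are Ntrk3 circRNA1989, from the gene of the neurotrophin-3 receptor TrkC, and Cnot6l circRNA648, from a deadenylase gene. The Ntrk3 circle had 8, 7 and 5 reads in model rats, against 4, 3 and 3 in control rats. The Cnot6l circle had 0, 3 and 5 reads in model rats, against 15, 9 and 6 in control rats.

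**Figure D4:**
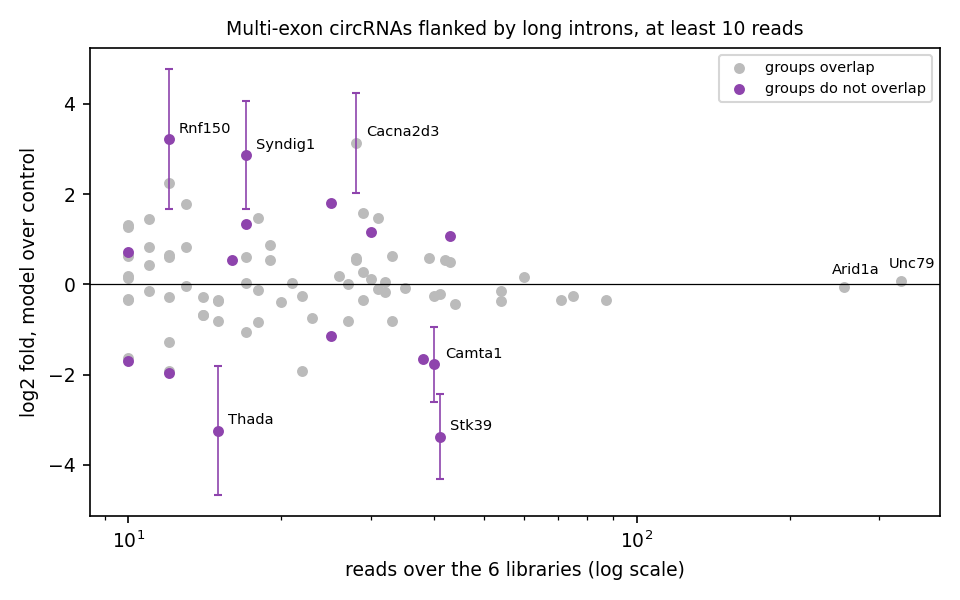
Log2 fold, model over control, of the 87 long-intron circRNAs with at least 10 reads, against total reads over the 6 libraries (log scale), from the edgeR fit with the 10-read filter. Points spread wide at low counts and narrow toward 0 at high counts; purple points are circles whose groups do not overlap, grey points those that overlap. Bars show the SE for the 6 circles that the authors' deposited table marks.

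The share of all junction reads in long-intron circRNAs was 11.9%, 12.3% and 12.1% in model rats 1 to 3, against 10.2%, 11.8% and 11.5% in control rats 1 to 3. Every model rat lay above every control rat, by little. The 95% exact binomial intervals ran from 11.1% to 12.8% in model rat 1 and from 11.0% to 12.6% in control rat 2. The denominator of all junction reads holds the reads of 2 circles outside the set, from Erbin and Atrnl1 (given below). Those reads were more numerous in control rats, and without them in this denominator the groups would overlap. With these 2 circles kept, the groups did not overlap over exonic junction reads (difference 1.02 points) or over multi-exon reads (1.70 points). Means were 12.1% ± 0.166 in model rats and 11.2% ± 0.858 in control rats (SD, n = 3 each), a difference of 0.884 points that was not tested, since the set was chosen with earlier results known. The groups overlapped among circles of 2 to 5 exons (difference 0.525 points) and among circles with at least 10 reads (0.314 points). They did not overlap among circles below 10 reads (0.570 points), without the Unc79 and Arid1a circles (0.805 points) or at 50000 bp (0.265 points). With a limit of 10000 bp the order turned round, at 31.4% ± 0.327 in model rats and 33.1% ± 0.798 in control rats. Circles of Erbin (circRNA1769, shorter intron 13630 bp) and Atrnl1 (circRNA2141, 10984 bp) enter at that limit. Erbin had 14, 10 and 8 reads in model rats, against 36, 63 and 31 in control rats, and Atrnl1 had 65, 22 and 45 in model rats, against 139, 93 and 123 in control rats. With these 2 circles not counted, but their reads kept in the denominator, the difference at 10000 bp was -0.134 points and the groups overlapped. Taking their reads out of the denominator too would move that difference further below 0. What the order at 10000 bp rested on was not tested.

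**Figure D5:**
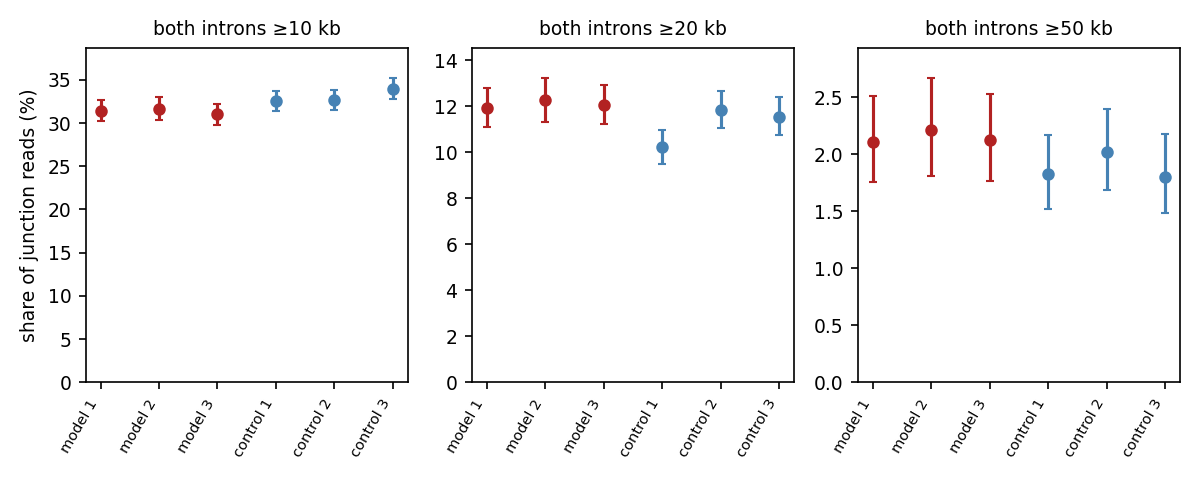
Share of junction reads, in percent, in multi-exon circRNAs with both introns above each limit, for each library, with 95% exact binomial intervals; model rats stand left of control rats. At 20000 bp the 3 model rats lie at 11.9% to 12.3% and the control rats at 10.2% to 11.8%, and at 10000 bp the order is turned round.

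Hosts were also counted in gene lists, beside 417 of all 3696 circRNA-producing genes. The synapse list had 32 hosts of long-intron circRNAs among its 56 circRNA-producing genes, with 289 reads, and Grik2 and the latrophilin gene Adgrl3 were among its leading hosts. The neuron list had 13 of 21, with Syt1 (synaptotagmin, the calcium sensor of vesicle release) and Lrp1b among its leading hosts. Axon guidance and cell adhesion had 24 of 55, led by Ptprd, Dscam and Robo1, a receptor for Slit guidance cues. Ion channels and transporters had 19 of 43, led by Unc79, Cacna2d3 and the potassium channel gene Kcnh1. Genes of the ubiquitin system had 3 of 55 and RNA-binding proteins 6 of 36. These are counts of hosts and carry no test; 0 members of any list passed the test between groups, and most lists had 0 testable hosts.

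The oligodendrocyte lineage list had 12 of 35 hosts with 161 reads, led by Ptprd and Dscam, which are neuronal genes too, and Phlpp1, a phosphatase of AKT. Astrocyte genes had 4 of 15 hosts with 6 reads, led by Gpc5, a glypican, Npas3, a transcription factor, and Grm3, a metabotropic glutamate receptor. Microglia genes had 2 of 7 (Plxdc2 and the kinase gene Lyn), endothelial and pericyte genes 1 of 5 (the phosphatase gene Ptprg) and ependyma genes 1 of 8 (Hydin, of motile cilia).

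Between the groups, summed levels overlapped for most lists. The synapse list had 8.94 ± 3.83 reads per 1000 in model rats and 7.42 ± 1.45 in control rats, and the axon guidance and adhesion list 7.10 ± 0.79 in model rats and 6.09 ± 1.34 in control rats (SD, n = 3 each). Ion channels and transporters did not overlap, at 15.7 ± 2.56 in model rats and 12.3 ± 1.49 in control rats, and Unc79 gave 67.6% of their reads. Without Unc79 the values were 5.93 ± 1.59 in model rats and 3.32 ± 0.18 in control rats; the Cacna2d3 circles, with 0, 14 and 19 reads in model rats against 1, 2 and 1 in control rats, lie in that remainder. Transcription and chromatin genes, led by Arid1a, Rere and Camta1, stood at 13.8 ± 3.25 in model rats and 13.7 ± 2.46 in control rats. The kinase and phosphatase list, led by Stk39, Dgki and Stk3, a Hippo pathway kinase, stood at 5.16 ± 0.53 in model rats and 7.30 ± 1.89 in control rats, and at 4.91 ± 0.80 in model rats and 4.96 ± 1.52 in control rats without Stk39.

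The smaller lists had little to compare. GTPase regulators, led by Tbc1d5, Ralgps2 and Agap1, held 167 reads in 11 of 53 hosts. Genes of cilia, microtubules and motors, led by Mtus2, Wdpcp and Dync1i1, held 67 reads in 10 of 45. RNA-binding genes, led by Cpeb3, Rbfox1 and Rbfox3, held 15 reads. The ubiquitin list also had 15 reads and did not overlap between groups, at 0.753 ± 0.257 in model rats and 0.158 ± 0.01 in control rats, and Rnf150 gave 80.0% of its reads, followed by Hecw1 and Fbxl17. Hosts of circRNAs widely described in brain, led by Unc79, Arid1a and Rere, held 836 reads (20.5% of those in long-intron circRNAs), at 25.0 ± 1.25 in model rats and 22.8 ± 4.59 in control rats.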

How the data were processed

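Labels assign 3 model and 3 control rats, 1 library each; the sources used here do not say whether they were prepared together. The authors deposited raw counts of back-splice junction reads for 11123 circRNAs, per the file headers. They also deposited a scaled signal (SRPBM), used only for its library divisors, and a log2 fold change, p-value and q-value per circRNA. The sources used here give neither that test nor the aligner and caller. Coordinates are 1-based on the build in the submitters' processing notes, mRatBN7.2.

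Of the rows, 2488 without reads were left out, as were 140 that met the intron and exon rule with 0 reads, among those, and 8 detected multi-exon circRNAs with a missing intron. Intron lengths are end minus start as listed. Host names come from the authors' table, and 409 of 417 matched RefSeq (GRCr8, names only). Counts were tested with edgeR 4.0.16 (R 4.3.3): quasi-likelihood, TMM, filterByExpr (minimum count 10, minimum total 15), Benjamini-Hochberg over all features tested, threshold 0.05; checked on simulated counts. Host sums kept long-intron and other circles of a gene as separate features. SEs are the log2 fold over the root of F. Within-library contrasts used an exact sign-flip permutation test. Read-weighted spliced length was planned as a further measure and was not computed. Alternatives were DESeq2 1.42.0, limma 3.58.1 (voom), other scalings, filters and limits, a replicate block and leaving out each rat. Intervals are exact 95% binomial ones; PCR reads are not independent molecules, so intervals and floors cover counting error only.

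The set, the gene lists and the tests were chosen with earlier results of these data known. Named circRNAs were those tested, the 10 with most reads, the 5 with the longest shorter intron and 3 on each side of the limit, the last 2 groups with at least 10 reads. Named hosts were the 10 with most reads, the 5 with most circles, those tested and the leading 3 of each list; 1 host that this rule names is not reported here.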

Additional observations from a re-analysis of the deposited data

How the results depend on the processing

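Long-intron circRNAs called were 0 under every scaling, filter, tool and left-out library at the 20000 bp limit, and 2 at 10000 bp, where Erbin and Atrnl1 enter. Host sums called were 1 with DESeq2, with the authors' divisors (an alternative chosen after seeing the data) and at 10000 bp, and 0 to 1 with each rat left out. The called sum was Stk39 with DESeq2, with the authors' divisors and without model rat 1. At 10000 bp it was another host, since the Stk39 sum had an adjusted p of 0.0600 there (edgeR). With the replicate block, 0 were called at either level; deviations of same-numbered libraries had correlations of -0.052, -0.022 and -0.033, so the numbers were not taken to pair the rats, though some single circles lay in same-numbered libraries (given under the other observations). The difference in read share was 1.70 points over multi-exon reads, 0.265 at 50000 bp, and 0.396 to 1.20 with each rat left out. At 10000 bp it was -1.70, and -0.134 with the Erbin and Atrnl1 circles not counted but their reads kept in the denominator. The difference in reads per circle was 1.20 at 10000 bp (exact permutation p = 0.03125) and -0.193 at 50000 bp (exact permutation p = 0.0625). It was 0.0542 without the Unc79 and Arid1a circles (0.133 and 0.362 when both sets were trimmed). With each rat left out it ran from 0.425 to 0.514, the exon difference from -0.40 to -0.37 and the span difference from 0.71 to 0.76. The exact permutation p was 0.0625 for each of these, the smallest 5 libraries allow.

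Of 238 alternative values for 16 named circles and sums, 193 kept direction and side of the threshold and 42 changed sign, all of uncalled values. Not all of these lay near 0. Without model rat 3, the Pde3b circle went from -0.30 to 0.35 and its sum from -0.32 to 0.34. With DESeq2's size factors in edgeR, Arid1a circRNA1417 stood at 0.079 and the Arid1a and Mapkap1 sums at 0.037 and 0.029; with DESeq2 they stood at 0.081, 0.039 and 0.023. The authors' divisors, which moved the median of all 60 tested circRNAs to -0.22, put Unc79 circRNA1253 and its sum at -0.073 and -0.072, Rere at -0.12 and Mlip at -0.14. Other sums that turned were Mlip with the 10-read filter (-0.043), voom (-0.13), the replicate block (-0.018) and 10000 bp (-0.0015), Rere with the 10-read filter (-0.0076), and Arid1a at 2 to 5 exons (0.021). The cause was not tested. With each rat left out, circles ranged from -0.35 to 0.30 (Arid1a), -0.49 to 0.062 (Mapkap1), -0.75 to 0.14 (Mboat2), -0.52 to 0.040 (Tbc1d5) and -0.86 to 0.35 (Pde3b), and sums from -0.39 to 0.26 (Arid1a), -0.22 to 0.22 (Mapkap1), -0.73 to 0.15 (Mboat2), -0.31 to 0.50 (Mlip), -0.87 to 0.34 (Pde3b), -0.032 to 0.16 (Rere) and -0.0043 to 0.28 (Unc79). Depth of 4750 to 6793 reads limits every single-circle comparison.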

Other observations

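Gene Ontology annotation of the hosts, available for 404 of the 417, placed more of them at the membrane than hosts of other multi-exon circRNAs alone (404 against 2457 annotated hosts). The term membrane covered 36.4% against 26.3%, plasma membrane 22.8% against 15.1%, synapse 7.67% against 3.09% and cell junction 6.68% against 2.32%. Cytoplasm covered 24.0% against 30.1%, cytosol 14.1% against 19.9% and ATP binding 6.68% against 11.3%. These shares are descriptions with no test.

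Some long-intron circles were read in few libraries despite fair counts. Acer3, which encodes an alkaline ceramidase, gave circRNA2015 with 16, 0 and 0 reads in model rats, against 19, 0 and 0 in control rats. Adgrl3 circRNA4125 had 0, 0 and 11 reads in model rats, against 0, 0 and 8 in control rats. Of 11 long-intron circRNAs with at least 6 reads found in exactly 1 model and 1 control library, 8 lay in libraries of the same number, as against 10 of 49 other circRNAs; 3 of the 9 possible combinations have the same number. These cases were picked after their values were seen and were not tested. Of the 87 with at least 10 reads, 53 (60.9%) were at 0 in at least 1 library, against 58.2% of the 392 other multi-exon circRNAs.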
